A study of Homo sapiens with 2 samples.

Results

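NF-kB pathway genes, some of which are recurrently mutated in myeloma, were examined as a set of 10 genes, taken by symbol from a table of 18930 genes. They were NFKB1, RELA, NFKB2, RELB, MAP3K14, CD40, TRAF3, BIRC3, CYLD and TNFAIP3, and all 10 had counts and passed the filter of 10 reads over both libraries. The study prepared 1 RNA-seq library labelled DR, for dacarbazine (DTIC)-resistant cells, and 1 library labelled WT, for the wild-type control. The cell line given for both is A375, derived from a human melanoma. The labels give 105 days of drug, which they spell DITC, to both samples, the one labelled WT included, whereas the study's methods describe drug exposure for the DR cells. DTIC alkylates DNA, and the DR cells were those still viable after the last passage in rising concentrations. The count columns were assigned through the sample descriptions, which differ by 1 punctuation mark, so every direction below rests on them. Both column names resemble the title of the DR sample, and neither resembles that of the WT sample, so that the WT column is WT rests on its description alone. Differences are between these 2 libraries and have no replicate check, and the intervals given cover read counting only.

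The libraries held 54878355 (DR) and 35294670 (WT) estimated reads. Levels are given as CPM, reads relative to a library size adjusted by TMM factors of 1.01 (DR) and 0.988 (WT). On this scale the median log2 fold change of the 16210 genes tested was 0.01. Most melanocytic markers were low or absent. The 13 melanocytic markers with counts summed to 57.4 CPM in the DR-labelled library and 56.6 CPM in the WT-labelled library, and SOX10, a defining factor of melanocytic cells, had 3 and 0 reads. MITF, another melanocytic factor, made up most of that sum, with 34.6 and 34.7 CPM. The 14 markers of dedifferentiated melanoma summed to 5424 and 8069 CPM, of which FN1, fibronectin, made up 4878 and 6414 CPM. Of the 14 genes 1 was more than 2-fold higher in the DR-labelled library, against 7.48% of all genes tested. Lower there were 3 genes, against 4.16%. VIM, vimentin, had 139 and 1166 CPM, CDH2, N-cadherin, 13.6 and 71.2 CPM, and TNC, tenascin C, 0.432 and 3.13 CPM. The part of this difference in the results below was not tested. The 15 plasma cell markers summed to 8796 and 8701 CPM, with median levels of 369 and 224 CPM. JCHAIN, which links secreted immunoglobulin units, had 2012 and 2917 CPM. Abundant plasma cell markers and a nearly absent SOX10 are at odds with the A375 melanoma label of both libraries. The identity of the cells was not tested, and the results below are not assigned to melanoma cells. The libraries are therefore named by their labels only, as DR-labelled and WT-labelled.

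NF-kB is a family of dimeric transcription factors held inactive until a receptor signals. In the canonical route, a kinase complex marks for degradation the inhibitors that keep NFKB1 and RELA dimers in the cytoplasm. In the noncanonical route, receptors such as CD40 relieve MAP3K14, the NF-kB-inducing kinase, from the complex of TRAF3, TRAF2 and BIRC3 or BIRC2 that has it degraded, and the NFKB2 precursor is then processed to a subunit that pairs with RELB. Plasma cells rely on these routes for survival signals, and myeloma cells often carry lesions that switch them on, such as loss of TRAF3, BIRC3 or CYLD or gain of MAP3K14 or CD40. NFKB1, NFKB2, RELB, BIRC3, CD40 and TNFAIP3 are themselves textbook targets of NF-kB.

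Several of these genes are known to be driven by the factor they regulate, so promoter windows were searched for the kappa-B consensus, the binding motif of NF-kB, on both strands, with overlapping matches allowed. RefSeq windows on GRCh38.p14, from 250 bases before to 50 bases after each annotated start, were found for 8 of the 10 genes, not for RELB and CD40. A match was present for 6 of the 8 genes, against 7.09% of the 27305 genes with a window, and in 8 of their 14 windows, against 5.91% of all 35116 windows. The set was chosen to hold pathway members and targets of NF-kB, so these shares are descriptions and give no independent evidence. NFKB2 and CYLD each had 3 windows, and those of CYLD overlap in part. The windows shown are those of the genes that differed most between the libraries among the genes with a window (TNFAIP3, BIRC3 and NFKB2). Those of NFKB1 and TRAF3, which had a match as well and differed little, are also shown. CYLD had matches and differed little too, and its windows are not shown. Matches are in capitals.
TNFAIP3, chr6:137867009-137867308, plus strand: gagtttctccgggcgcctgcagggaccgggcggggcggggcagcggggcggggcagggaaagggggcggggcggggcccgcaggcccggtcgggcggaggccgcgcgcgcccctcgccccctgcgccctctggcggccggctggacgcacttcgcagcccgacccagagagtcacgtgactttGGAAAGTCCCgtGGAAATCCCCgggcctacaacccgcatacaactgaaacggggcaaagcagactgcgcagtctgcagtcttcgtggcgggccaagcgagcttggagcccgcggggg
BIRC3, chr11:102317234-102317533, plus strand: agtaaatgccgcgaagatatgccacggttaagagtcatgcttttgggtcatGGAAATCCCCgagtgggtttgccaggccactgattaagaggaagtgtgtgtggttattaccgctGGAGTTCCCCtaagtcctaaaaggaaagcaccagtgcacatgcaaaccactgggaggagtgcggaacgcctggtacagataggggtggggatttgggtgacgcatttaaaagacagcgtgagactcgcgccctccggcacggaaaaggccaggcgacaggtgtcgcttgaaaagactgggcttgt
NFKB2, chr10:102394328-102394627, plus strand: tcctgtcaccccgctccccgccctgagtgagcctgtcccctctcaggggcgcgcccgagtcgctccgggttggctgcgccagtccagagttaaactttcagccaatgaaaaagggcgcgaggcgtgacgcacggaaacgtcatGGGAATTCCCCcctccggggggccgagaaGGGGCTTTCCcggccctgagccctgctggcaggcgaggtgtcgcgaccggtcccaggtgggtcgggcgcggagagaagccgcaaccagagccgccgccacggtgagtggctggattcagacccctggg
NFKB2, chr10:102395455-102395754, plus strand: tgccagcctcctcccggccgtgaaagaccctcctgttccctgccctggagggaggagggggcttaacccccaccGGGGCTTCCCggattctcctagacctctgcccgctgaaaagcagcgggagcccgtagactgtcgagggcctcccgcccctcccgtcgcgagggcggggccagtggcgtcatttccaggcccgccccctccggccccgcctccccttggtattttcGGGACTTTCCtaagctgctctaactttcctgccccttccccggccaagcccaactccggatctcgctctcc
NFKB1, chr4:102501109-102501408, plus strand: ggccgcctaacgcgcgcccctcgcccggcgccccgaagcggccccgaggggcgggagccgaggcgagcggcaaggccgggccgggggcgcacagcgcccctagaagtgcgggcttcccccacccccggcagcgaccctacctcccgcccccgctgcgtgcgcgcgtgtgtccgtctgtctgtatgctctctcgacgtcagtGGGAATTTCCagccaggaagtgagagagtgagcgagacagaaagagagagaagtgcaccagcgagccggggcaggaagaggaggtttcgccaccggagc
TRAF3, chr14:102777199-102777498, plus strand: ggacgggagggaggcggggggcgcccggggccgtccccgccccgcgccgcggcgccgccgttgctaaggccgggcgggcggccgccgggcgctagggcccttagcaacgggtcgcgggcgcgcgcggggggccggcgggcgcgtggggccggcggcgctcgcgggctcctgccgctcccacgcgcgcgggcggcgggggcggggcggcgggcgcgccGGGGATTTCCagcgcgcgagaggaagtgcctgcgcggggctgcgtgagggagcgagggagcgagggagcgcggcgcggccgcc
No match to these letters lay in the windows of RELA and MAP3K14. A match is a description of the letters and does not show binding in these cells.

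By level per length, RELA and NFKB2 led the 10 genes in both libraries. Levels of different genes were compared as CPM per kilobase of the deposited gene length. In the DR-labelled library, NFKB2 had 59.3 CPM per kilobase, RELA 48.6, TNFAIP3 40.7, CYLD 31.0 and BIRC3 22.5. RELB (16.8), NFKB1 (16.6) and MAP3K14 (15.8) followed, and among these 3 the 95% Poisson intervals of neighbours in the order overlapped. CD40 (11.2) and TRAF3 (4.70) were last. In the WT-labelled library the order was RELA (53.0), NFKB2 (35.5), CYLD (27.2) and NFKB1 (15.9), and then RELB (10.5), BIRC3 (10.2) and MAP3K14 (10.1), whose neighbouring intervals overlapped. TNFAIP3 (8.10), TRAF3 (5.07) and CD40 (1.48) were last there. TNFAIP3 thus stood at rank 3 in one library and rank 8 in the other, the largest shift in rank among the 10 genes. Among all genes tested, TNFAIP3 lay at percentile 87.8 by level per length in the DR-labelled library and at percentile 54.4 in the WT-labelled library, and CD40 at percentiles 61.7 and 31.4.

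**Figure D1:**
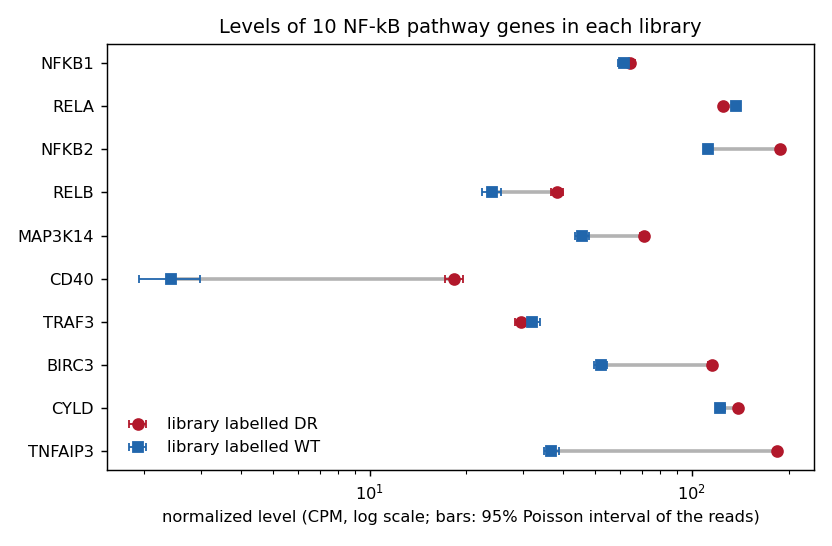
Normalized level in CPM (log axis) of the 10 genes in the DR-labelled library (circles) and the WT-labelled library (squares), with 95% Poisson intervals of the reads. CD40 (18.3 against 2.41 CPM) and TNFAIP3 (185 against 36.7 CPM) lie farthest apart, while the points of NFKB1, RELA and TRAF3 nearly coincide.

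The 10 genes were then compared between the libraries, to ask whether the pathway differed with the label. CD40, TNFAIP3 and BIRC3 were more than 2-fold higher in the DR-labelled library. NFKB2, RELB and MAP3K14 were higher there by 1.56 to 1.67-fold, under the threshold. NFKB1, RELA, TRAF3 and CYLD differed by less than 0.2 on the log2 scale. The threshold for a call was 1 on the log2 scale, in either direction, with 0.5 CPM added to each level. By this rule 3 of the 10 genes were higher in the DR-labelled library and 0 were lower, against 7.48% of all genes tested higher, 4.16% lower and 11.6% in either direction. Among the 9860 tested genes whose mean level reached 10 CPM, 4.08% were higher, 3.66% lower and 7.74% either. At a threshold of 2, CD40 and TNFAIP3 remained, against 2.09% of all genes tested higher, 1.17% lower and 3.26% either. The median log2 fold change of the 10 genes was 0.65. The 10 genes were chosen with earlier results of these data known, so these counts and this median give no independent evidence of a direction. No p-value can be given with 1 library per label. In bulk libraries a change in the share of cells that express a gene and a change in its RNA per cell cannot be told apart.

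NFKB1 and RELA were at nearly the same level in both libraries, and REL, the remaining canonical subunit and none of the 10 genes, was lower in the DR-labelled library, with 20.6 against 30.1 CPM (log2 fold change -0.54, -0.66 to -0.42). NFKB1 (NCBI Gene 4790, chromosome 4), the precursor of the smaller canonical subunit, had 64.5 CPM in the DR-labelled library and 61.8 CPM in the WT-labelled library. Its log2 fold change was 0.06, with a 95% Clopper-Pearson interval of -0.02 to 0.14 that includes 0. RELA (NCBI Gene 5970, chromosome 11), the canonical activating subunit, had 126 and 137 CPM. Its log2 fold change was -0.13 (-0.18 to -0.07), slightly lower in the DR-labelled library.

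Both noncanonical subunits were higher in the DR-labelled library. NFKB2 (NCBI Gene 4791, chromosome 10), the precursor that noncanonical signalling processes, had 188 and 112 CPM in the libraries labelled DR and WT. The log2 fold change of NFKB2 was 0.74 (0.68 to 0.79), at percentile 88.8 of all genes tested. RELB (NCBI Gene 5971, chromosome 19), its dimer partner, had 38.2 and 23.9 CPM. The log2 fold change of RELB was 0.67 (0.55 to 0.78), at percentile 87.2. Neither reached the threshold of 1, and the intervals of the pair overlap. Of the summed level per length of NFKB1, NFKB2, RELA, RELB and REL, NFKB2 made up 41.2% in the DR-labelled library and 29.9% in the WT-labelled library, RELA 33.7% and 44.6%, and REL 1.87% and 3.31%. NFKB2 was thus the leading subunit transcript in one library and RELA in the other.

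Of the activators of the noncanonical route among the 10 genes, CD40 passed the threshold and MAP3K14 did not. MAP3K14 (NCBI Gene 9020, chromosome 17), the kinase at its centre, had 71.1 and 45.6 CPM in the libraries labelled DR and WT. This gave a log2 fold change of 0.64 (0.55 to 0.72). CD40 (NCBI Gene 958, chromosome 20), a receptor of the tumour necrosis factor family on B-lineage cells, had 18.3 and 2.41 CPM, from 1016 and 84 reads. The log2 fold change of CD40 was 2.69 (2.42 to 2.97), a 6.46-fold difference and the largest of the 10 genes, at percentile 99.1. The level in the WT-labelled library is low enough for the pseudocount to matter, and with 5 CPM in place of 0.5 CPM the value was 1.65. TNFRSF13C, a further receptor of the noncanonical route, had 67 and 64 reads in the DR- and WT-labelled libraries (log2 fold change -0.45, -0.84 to -0.07). LTBR, another such receptor, went the other way, with 72 and 15 reads (0.95, 0.49 to 1.35). CD40LG, the ligand of CD40, had 2 and 3 reads and was not tested.

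The negative regulators split into genes with little difference and genes with a large one. TRAF3 (NCBI Gene 7187, chromosome 14), the adaptor that brings MAP3K14 to degradation, had 29.6 and 31.9 CPM in the libraries labelled DR and WT. Its log2 fold change was -0.11 (-0.22 to 0.00). TRAF3 had the lowest level per length of the 10 genes in the DR-labelled library and the next to lowest in the WT-labelled library. CYLD (NCBI Gene 1540, chromosome 16), a deubiquitinase that turns signalling off, had 139.8 and 123 CPM. The log2 fold change of CYLD was 0.19 (0.13 to 0.24). Neither gene was near absent from either library.

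BIRC3, a brake of the noncanonical route, and TNFAIP3, a feedback inhibitor, are also induced by NF-kB and were the other genes past the threshold. BIRC3 (NCBI Gene 330, chromosome 11), a ubiquitin ligase of the TRAF complex and an inhibitor of apoptosis, had 116 and 52.3 CPM in the libraries labelled DR and WT. This gave a log2 fold change of 1.14 (1.06 to 1.21), a 2.20-fold difference at percentile 93.9. TNFAIP3 (NCBI Gene 7128, chromosome 6), a ubiquitin-editing enzyme of the feedback loop, had 185 and 36.7 CPM, from 10254 and 1279 reads. The log2 fold change of TNFAIP3 was 2.32 (2.23 to 2.40), a 4.98-fold difference at percentile 98.5.

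**Figure D2:**
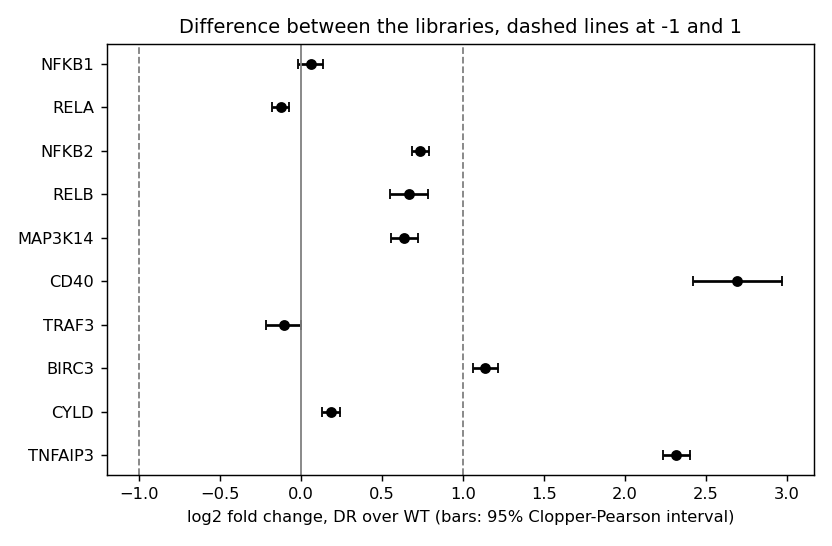
Log2 fold change of each of the 10 genes, DR-labelled library over WT-labelled library, with 95% Clopper-Pearson intervals that cover read counting only and dashed lines at -1 and 1. CD40, TNFAIP3 and BIRC3 lie to the right of 1, NFKB2, RELB and MAP3K14 lie between 0.64 and 0.74, and the other 4 genes lie close to 0.

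Ratios of genes within a library do not depend on how the libraries were scaled. The pairs were chosen after the values were seen, and BIRC2 and NFKBIA were taken in as the closest relatives of BIRC3 and TNFAIP3 in role. The ratio of NFKB2 to NFKB1 per length was 3.57 in the DR-labelled library and 2.23 in the WT-labelled library, a 1.60-fold difference (95% interval 1.5 to 1.71). For RELB to RELA the ratios were 0.346 and 0.198, a 1.74-fold difference (1.60 to 1.91). Both noncanonical subunits thus gained on their canonical counterparts by similar factors. The ratio of MAP3K14 to TRAF3, the kinase to the adaptor that limits it, was 3.36 and 2.0, a 1.68-fold difference (1.53 to 1.85). For BIRC3 to BIRC2, which encode related ligases, it was 1.49 and 0.577, a 2.58-fold difference (2.39 to 2.79), so that BIRC3 exceeded BIRC2 per length only in the DR-labelled library. TNFAIP3 to CYLD gave 1.31 and 0.297, a 4.42-fold difference (4.13 to 4.74).

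The rest of the pathway was described through lists. They were drawn up with earlier results of these data known, so their counts are descriptions and give no independent evidence of a direction. Of 18 receptors and ligands 16 were tested, with a median log2 fold change of 0.57. Past the threshold, 4 were higher in the DR-labelled library and 1 was lower, against 7.48% and 4.16% of all genes tested. With a pseudocount of 5 CPM the counts were 1 and 0. TNFRSF13B, a receptor for the plasma cell survival ligands of the tumour necrosis factor family, had 98.9 CPM in the DR-labelled library and 33.0 CPM in the WT-labelled library. Its log2 fold change was 1.57 (1.48 to 1.66). TNFRSF17, the B cell maturation antigen, had 58.1 and 64.5 CPM, with a log2 fold change of -0.15 (-0.23 to -0.07). Per kilobase, TNFRSF13B led the list in the DR-labelled library (71.8 CPM) and TNFRSF17 in the WT-labelled library (64.9 CPM). The other genes past the threshold had few reads. TNFSF11, the ligand of osteoclast differentiation, had 127 and 7 reads (log2 fold change 1.99, 1.56 to 2.30), and its receptor TNFRSF11A had 198 and 23 reads (1.81, 1.40 to 2.19). LTA, lymphotoxin alpha, had 61 and 6 reads (1.25, 0.79 to 1.56), and IL1R1, an interleukin receptor, had 20 and 54 reads (-1.25, -1.62 to -0.83). The bounds of LTA and IL1R1 reach inside the threshold.

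The lists of kinases, inhibitors and adaptors held 0 genes past the threshold, against 11.6% of all genes tested in either direction. The lists are small, and the difference from that share was not tested. In the list of kinases, inhibitors and remaining subunits, 0 of 16 tested genes were higher or lower, with a range of -0.54 to 0.61 and a median of -0.07. NFKBIA, the main cytoplasmic inhibitor and itself a classical target, had 33.7 CPM in the DR-labelled library and 39.6 CPM in the WT-labelled library (log2 fold change -0.23, -0.33 to -0.13). NFKBIB, a related inhibitor, had 26.6 and 24.6 CPM (0.11, -0.01 to 0.23). NFKBIA and TNFAIP3, both feedback inhibitors, thus differed in opposite directions, and the ratio of TNFAIP3 to NFKBIA per length was 1.91 and 0.323 in the libraries labelled DR and WT. Among adaptors and ubiquitin ligases, 0 of 18 tested genes passed, with a range of -0.74 to 0.68 and a median of -0.07. IRAK1, a kinase of the interleukin and Toll-like receptor route, had 545 and 669 CPM (-0.30, -0.32 to -0.27), and UBE2N, a ubiquitin-conjugating enzyme, had 103 and 98.4 CPM (0.06, -0.00 to 0.12).

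Of the 15 tested further negative regulators 0 passed the threshold, with a range of -0.93 to 0.98 and a median of -0.03. The share over all genes tested was 11.6% in either direction, and the difference was not tested. ZC3H12A, an endonuclease that degrades inflammatory transcripts, lay just under the threshold at 0.98 (0.86 to 1.11), and 1 gene of the list passed with library totals. TNIP1, a partner of TNFAIP3, had 149 and 95.7 CPM in the libraries labelled DR and WT (log2 fold change 0.63, 0.58 to 0.69). TAX1BP1, another partner, had 96.1 and 124 CPM (-0.37, -0.43 to -0.31). As a list that was not chosen by hand, the 27 genes whose deposited annotation holds the process terms for NIK or I-kappaB kinase signalling were counted, of which 2 belong to the 10 genes. Of 26 tested, 4 passed the threshold upward in the DR-labelled library and 0 downward (15.4%, against 7.48% of all genes tested higher and 4.16% lower), with a median of 0.24. With a pseudocount of 5 CPM 1 passed. Those 4 were BIRC3, BTK, RIPK3 and TIAF1, and the last 3, named after their values were seen, had 7.06, 5.85 and 3.67 CPM in the DR-labelled library and 2.84, 2.04 and 0.918 CPM in the WT-labelled library.

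**Figure D3:**
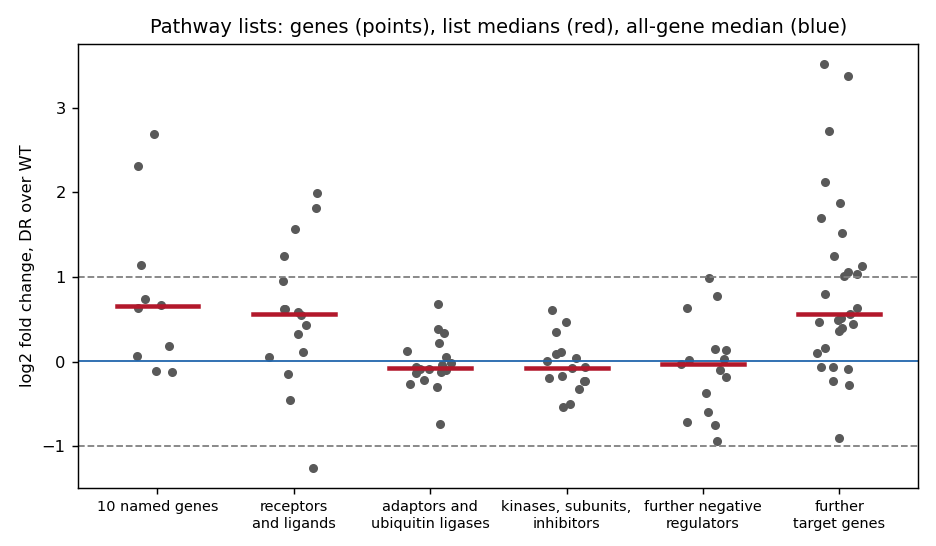
Log2 fold change (DR-labelled library over WT-labelled library) of each tested gene in the 10 named genes and 5 pathway lists, with list medians (red), the median of all genes tested (blue, 0.01) and dashed lines at -1 and 1. The listed adaptors, kinases and further negative regulators stay within the dashed lines, while receptors and ligands and further target genes reach beyond 1.

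Of the further target genes, 29 of 32 were tested. In the DR-labelled library 12 were higher (41.4%, against 7.48% of all genes tested) and 0 lower, with a median log2 fold change of 0.56. This list too was chosen with earlier results of these data known, so the share does not support a direction, and with a pseudocount of 5 CPM 6 were higher. Of the 32 genes 6 also stand in the other pathway lists. The largest differences were those of IL2RG and CCL3. IL2RG, the shared gamma chain of interleukin receptors, had 139 CPM in the DR-labelled library and 11.7 CPM in the WT-labelled library. This gave a log2 fold change of 3.51 (3.38 to 3.66), an 11.4-fold difference. CCL3, an inflammatory chemokine made by myeloma cells, had 246 and 23.2 CPM (3.38, 3.28 to 3.48). WNT10A, a secreted WNT ligand, had 35.6 and 4.96 CPM (2.72, 2.52 to 2.93). CD74, the invariant chain of MHC class II and the target gene with the highest level per length, had 1926 and 444 CPM (2.12, 2.09 to 2.14). CXCL10, an interferon-inducible chemokine, had 103.7 and 31.7 CPM (1.69, 1.60 to 1.79), and CCL4, a relative of CCL3, had 97 and 4 reads (1.87, 1.45 to 2.11). CCL3 and CCL4 have near-identical copies in the genome and carry fractional counts, so their values are uncertain.

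Not every target followed. The values of 17 tested targets stayed within the threshold, and 6 of the 29 lay below 0, NFKBIA among them. In the same libraries 3 of the 15 plasma cell markers passed the threshold upward (20%) and 0 downward. The shares over all genes tested were 7.48% and 4.16%. The plasma cell markers had a median of 0.15, while their summed level was nearly the same. Their part in the counts of targets was not tested. Of the tested targets with a promoter window, 5 of 11 with a kappa-B match and 4 of 14 without one were higher. Over all genes tested with a window the shares were 8.83% of 1132 genes with a match and 6.81% of 11671 genes without one.

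**Figure D4:**
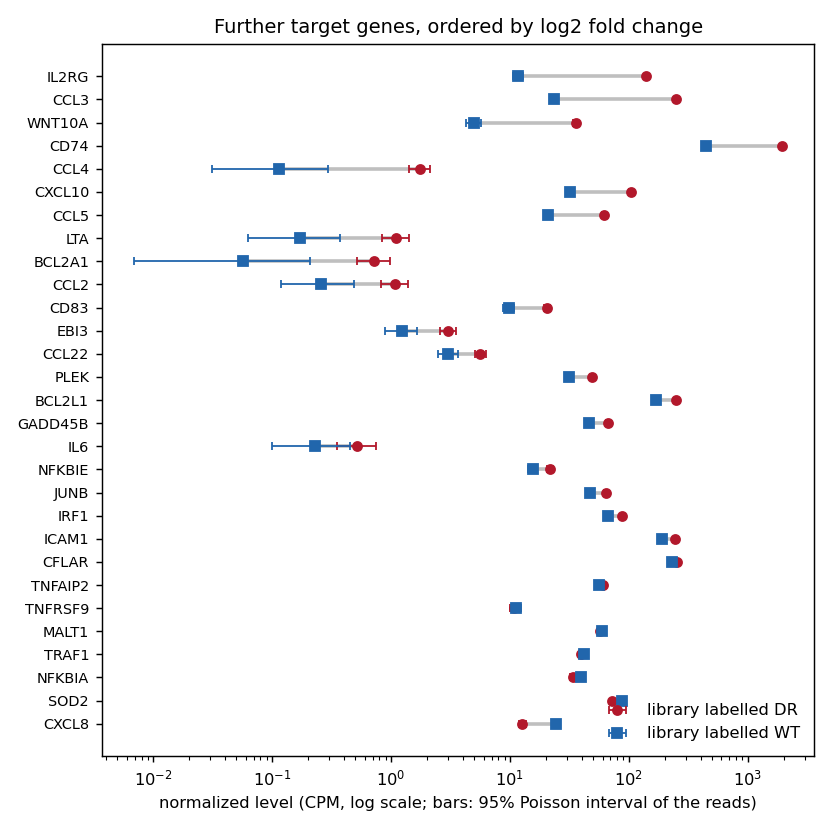
Normalized level in CPM (log axis) of the 29 tested further target genes in the DR-labelled library (circles) and the WT-labelled library (squares), ordered by log2 fold change, with 95% Poisson intervals of the reads. IL2RG, CCL3 and WNT10A at the top are far higher in the DR-labelled library, and CXCL8 at the bottom is lower there (12.7 against 24.4 CPM).

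The genes around each of the 10 genes were compared to see whether a difference extended along the chromosome. The 5 tested genes on each side in RefSeq order were used, as names only, since RefSeq is on another build than the hg19 named in the submitters' processing notes. The medians of the neighbours ranged from -0.27 (TRAF3) to 0.16 (MAP3K14) on the log2 scale. For TNFAIP3 the median was 0.13, with MAP7 (1.01) and PERP higher among 10 neighbours. PERP, the adjacent gene and a membrane protein linked to apoptosis, had a log2 fold change of 4.61, above that of TNFAIP3 itself. For BIRC3 the median was 0.07, with YAP1 beside it at 1.15 (mean level 1.46 CPM) and MMP13 at -1.87 (9.88 CPM). For CD40 the median was -0.11, and the 3 neighbours past the threshold, MMP9, SLC13A3 and OCSTAMP, had mean levels of 0.692, 0.534 and 0.353 CPM. NOD2, next to CYLD and a sensor that signals through NF-kB, had a log2 fold change of 1.04. CDC42BPB, next to TRAF3, had 1.51 and DDIT4L, near NFKB1, had 5.06. The neighbours of NFKB2, RELA, RELB and MAP3K14 held 0 genes past the threshold. By the same threshold 7.48% of all genes tested were higher and 4.16% lower. The counts of neighbours were not tested against these shares. These neighbours were named after their values were seen.

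**Figure D5:**
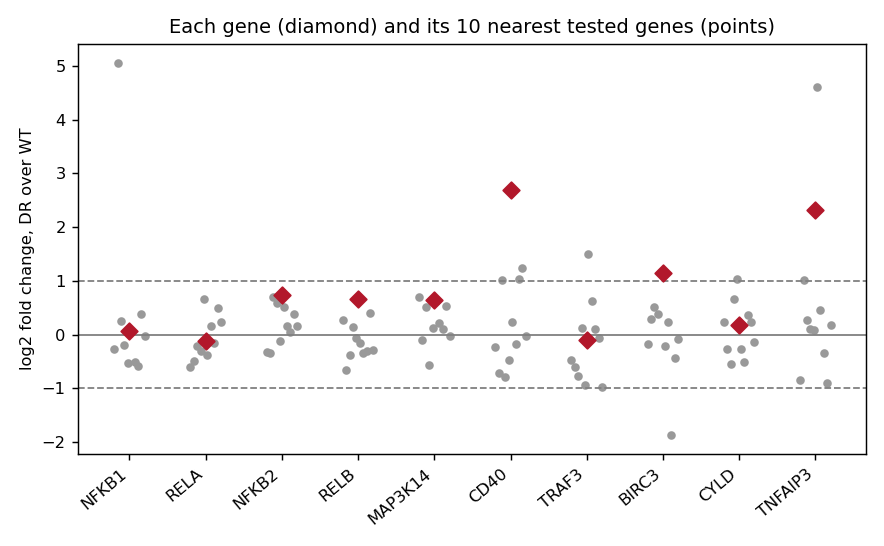
Log2 fold change (DR-labelled library over WT-labelled library) of each of the 10 genes (diamonds) and of its 10 nearest tested genes (points, left to right in chromosome order), with dashed lines at -1 and 1. The diamonds of CD40, BIRC3 and TNFAIP3 lie far above the medians of their neighbours (-0.11, 0.07 and 0.13), and single neighbours of NFKB1 and TNFAIP3 exceed 4.

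The deposited counts of CD40, TRAF3 and BIRC3 were fractional, so that part of their reads was shared out by the authors' counting. In the GENCODE v29 annotation, exons of RELA, MAP3K14 and CYLD overlap exons of a gene on the opposite strand, which for MAP3K14 is MAP3K14-AS1. Whether the counting used strand is not given in the sources used here, and without it reads of such pairs cannot be told apart.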

How the data were processed

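RNA-seq of 2 libraries was analysed, 1 labelled DR and 1 labelled WT. The authors deposited a table of estimated counts per gene, not scaled for depth, with gene length, annotation, and a log2 ratio with its p-value, q-value and direction call from the authors' own comparison, which were not used. The submitters' processing notes name Bowtie 0.12.2 and hg19. The counting tool and annotation are not given in the sources used here. Of 18930 genes, 663 had no count, and 9108 had fractional counts. Lengths are as the authors deposited them.

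Counts were rounded, scaled by TMM (edgeR 4.0.16, R 4.3.3) and filtered at 10 reads over both libraries, which left 16210 genes. Log2 fold changes were computed on CPM plus a pseudocount of 0.5. The quasi-likelihood test of edgeR needs replicates and was not run, so genes were called by a log2 fold change of 1, without a p-value. Fold changes carry 95% exact binomial (Clopper-Pearson) intervals, levels Poisson intervals and ratios approximate (log-normal) intervals from their read counts (SciPy 1.17.1, Python 3.11.15). Reads are not independent molecules, so all cover counting error only. A floor of 3 reads is 0.0540 and 0.0861 CPM. The calculation was tested on simulated data.

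Of the genes tested, 15962 matched RefSeq by NCBI Gene ID. Promoters were matched by symbol for the 10 genes and the shares of genes with a match. For the comparison of fold changes by match they were matched by NCBI Gene ID. The 10 genes and the lists were chosen with earlier results of these data known. Besides the 10 genes, the text names from each pathway list up to 6 genes past the threshold by size and the 2 with the highest level per length. Others were chosen after their values were seen. Alternatives were DESeq2 1.42.0 size factors, library totals, pseudocounts of 0.1 and 5 CPM, filters at 1 and 50 reads, a log2 threshold of 2, unrounded counts, no division by length and, added later, a median log2 fold change set to 0.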

Additional observations from a re-analysis of the deposited data

How the results depend on the processing

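No paired analysis was possible because each label has a single library, and no replicate could be left out. Of 246 recomputed values, 224 stayed within read-counting intervals or, for counts of genes, within 1.5 times. The 3 genes of the 10 called higher were 3 under each scaling and pseudocount and 2 at a log2 threshold of 2, and 0 were lower throughout. With a pseudocount of 5 CPM, which shrinks low genes, the log2 fold changes of CD40 and TNFAIP3 were 1.65 and 2.18, and 423 genes in all were higher and 333 lower. That pseudocount gave medians of 0.35 for receptors and ligands and 0.38 for further targets, with 1 receptor or ligand higher, 0 lower, 6 targets higher and 1 gene of the annotated terms higher. At a log2 threshold of 2, 339 genes in all were higher (2.09%) and 189 lower (1.17%), with 0 receptors or ligands in either direction, 4 targets and 0 genes of the annotated terms. Of the further negative regulators, 1 was higher with library totals, and 1 was higher and 1 lower with a pseudocount of 0.1 CPM. The median of those regulators was 0.00 with library totals. Without a filter the median of the targets was 0.50, as genes with few reads entered. Without division by length 3 of the 10 genes kept their rank by level in each library. The depth limits genes of few reads, such as CD40LG, and the spread between cultures is unknown.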
